A study of Mus musculus with 32 samples.

Results

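The Ly6 genes encode small cell surface proteins, and 6 of them, Ly6a, Ly6c1, Ly6c2, Ly6d, Ly6e and Ly6i, were followed through the differentiation of transferred mouse monocytes into intestinal macrophages. They were taken by symbol from the 24148 gene symbols that both deposited count tables hold. All 6 were found, and 5 of them, all but Ly6i, had at least 5 CPM (counts scaled to 1000000 reads on genes) in at least 3 libraries and were tested. Ly6d reached that minimum among the CD11c-DTR libraries only through ileal libraries (10 of 12, and none of the graft or colon), so that the filter fixed the direction of its ileal differences, and these are given as a description beside their values without the filter. Too few graft libraries had 5 CPM of Ly6a, so that it entered the test through engrafted libraries, and its rise is a description too.

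Bone marrow chimeras whose hematopoietic cells carried a diphtheria toxin receptor (DTR) were depleted of gut macrophages with diphtheria toxin and given monocytes, and the cells that had engrafted were profiled by 3' RNA-seq. The monocyte graft (day 0, 3 libraries) was sorted from C57BL/6 mice as CD11b+ CD115+ Ly6C+ cells without toxin treatment. The study describes these cells as Cx3cr1 gfp/+ bone marrow monocytes, whereas their labels name blood as the organ and give the Itgax-DTR/GFP transgene as the genotype. In CD11c-DTR chimeras, which carry that transgene (Tg[Itgax-DTR/GFP]57Lan) in their hematopoietic cells under the CD11c promoter, graft-derived cells were sorted from the colon on day 4 (3 libraries), day 8 (3 of 4 libraries) and day 12 (4 libraries) and from the ileum on the same days (4 libraries each). In Cx3cr1-DTR chimeras (CX3CR1-DTR in the plots), where the CX3CR1 promoter drives the receptor, they were sorted from the colon only (6 libraries), on day 14. The study counts fewer repeats of this group than are labelled and does not name them, so all were used. All recipients had been irradiated and treated with toxin, for which the study gives a schedule of every other day in the CD11c-DTR chimeras. No group is thus an unmanipulated gut, and the recipients keep all cells in which the promoter is silent. The labels give the selection of all engrafted cells as CD11b+ CD64+ Ly6C- MHCII+, whereas the study's text describes a sort on the donor allotype and GFP, so that it is open in the sources whether Ly6C was part of the gate. The labels date the CD11c-DTR libraries to 3 experiments, with ileal day 8 replicate 2 dated a year before the rest of experiment 3, which was read as a slip. Since nothing says that every library came from its own animals, p-values measure only the spread between these libraries.

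Ly6 proteins are held in the outer leaflet of the plasma membrane by a glycosylphosphatidylinositol (GPI) anchor and carry a cysteine-rich domain that they share with the receptor for urokinase and with CD59. The antigen Ly6C, made from Ly6c1 and Ly6c2, separates classical Ly6C+ monocytes, the precursors of gut macrophages, from other blood monocytes, and it is lost from the surface as the cells mature in the lamina propria. Ly6a, known as Sca-1, marks hematopoietic stem and progenitor cells and is induced by interferon, Ly6e is an interferon-induced gene with effects on viral entry, and Ly6d marks lymphoid progenitors that have turned towards the B cell lineage. Ly6c1 and Ly6a are also known from endothelial cells, and Ly6i is a close relative of Ly6a and Ly6c found in some myeloid cells.

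All 6 genes lie within one cluster on chromosome 15 of the mm9 assembly. Ly6d spans chr15:74592486-74593997 on the minus strand, Ly6e chr15:74785481-74790335 on the plus strand, Ly6i chr15:74810242-74813860, Ly6a chr15:74825307-74828461, Ly6c1 chr15:74875445-74879267 and Ly6c2 chr15:74938591-74942379, the last 4 on the minus strand. The proximal promoters of the pair that makes the Ly6C antigen are shown here because Ly6c1 and Ly6c2 are near copies in their coding parts and yet were found in very different proportions before and after engraftment. RefSeq held a promoter of 300 bases, from 250 before to 50 after the start, for these 2 of the 6 genes, in the GRCm38.p6 build and on the minus strand, for Ly6c1 at chr15:75048788-75049087 and for Ly6c2 at chr15:75111922-75112221. Each of the 2 genes has 2 entries, of which the first is printed. Capitals mark the letters GAGGAA, the core recognised by PU.1, the factor that directs macrophage development, or their reverse complement.
Ly6c1: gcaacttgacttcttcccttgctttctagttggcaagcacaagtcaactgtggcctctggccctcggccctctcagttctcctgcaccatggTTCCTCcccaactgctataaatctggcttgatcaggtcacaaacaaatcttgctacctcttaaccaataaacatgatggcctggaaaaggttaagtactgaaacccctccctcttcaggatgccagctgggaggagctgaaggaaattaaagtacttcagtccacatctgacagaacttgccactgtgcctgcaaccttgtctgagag
Ly6c2: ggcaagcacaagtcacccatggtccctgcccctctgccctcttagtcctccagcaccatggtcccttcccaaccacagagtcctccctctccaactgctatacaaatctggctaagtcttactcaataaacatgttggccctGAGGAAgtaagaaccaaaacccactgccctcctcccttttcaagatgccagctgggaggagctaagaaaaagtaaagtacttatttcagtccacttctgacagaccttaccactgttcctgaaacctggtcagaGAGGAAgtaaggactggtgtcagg

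The 2 promoters were the same in 213 of 335 aligned columns (63.6%). On both strands, the Ly6c1 window held GAGGAA 1 time, 158 bases before the start on the opposite strand, and the Ly6c2 window held it 2 times on the strand of the gene, 108 bases before and 26 bases after the start. Of all 32851 promoters of this length, 28.3% held these letters, so that a match is common. No match was found in either window for the interferon response element (the letters GAAA repeated after 2 free bases, in 3.44% of promoters), the gamma-activated sequence (TTCNNNGAA, 8.3%), the AP-1 site (TGANTCA, 7.81%) or the C/EBP site (TTGCNNAA, 10.8%). The letters are a description of these windows and say nothing of what binds there.

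In contrast to their promoters, the coding sequences of Ly6c1 and Ly6c2 were identical at 387 of 396 aligned bases (97.7%). Ly6a and Ly6i were 86.4% identical, Ly6a shared 82.8% with Ly6c1 and 82.3% with Ly6c2, and Ly6d and Ly6e shared between 52.1% and 56.4% with any other member. Because 3' reads fall near the end of a transcript and the authors kept reads that map to one place, the last 500 bases of each transcript were cut into 461 overlapping stretches of 40 bases. Of these, 31.2% in Ly6c1 and 32.5% in Ly6c2 also occurred in another gene, mainly each other, 56 of the 461 did so in Ly6i, 3.47% in Ly6a, and none did so in Ly6d or Ly6e. Reads lying wholly in the shared stretches of Ly6c1, Ly6c2 and Ly6i could not have been placed, and their levels are uncertain to that extent.

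The libraries held between 591817 and 5228664 reads on genes, so that 3 reads, taken as the least level to be read as present, correspond to 0.574 to 5.07 CPM. Intervals and floors given here cover counting error only. The labelled cell type was checked against marker genes. In the graft, the summed level of 11 macrophage genes was 9029 to 12180 CPM and that of 10 epithelial genes 3.52 to 4.49 CPM. In the 10 colonic libraries of the CD11c-DTR chimeras that were tested the macrophage genes summed to 832 to 4886 CPM and the epithelial genes to 12850 to 18770 CPM, in the ileal ones to 2157 to 22380 and 2280 to 16990 CPM, and in the Cx3cr1-DTR colon to 1358 to 2715 and 14430 to 22310 CPM. Mean Ptprc, the leukocyte antigen CD45, was 726 CPM in the graft, 32.9 to 67.3 CPM in the colon, 143 to 267 CPM in the ileum and 2.15 CPM in the Cx3cr1-DTR colon. In the tested colonic libraries the epithelial list thus summed higher than the macrophage list. Such sums depend on the genes chosen and do not measure the share of each cell type. The part of other cells in the Ly6 levels was not tested. Colonic day 8 replicate 1 (experiment 1), which was left out of the tests because the study's source data name repeats of this group that match the titles of the other 3, had the reverse, with 17880 CPM of macrophage and 7745 CPM of epithelial genes, and is not in the plots or in the counts of libraries. In bulk RNA, fewer cells of a type and less RNA per cell cannot be told apart.

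Other cell types differed between the gut segments as well. Summed levels of 8 endothelial genes were 11.9 to 18.3 CPM in the graft, where 7 of the 8 were at the floor, 93.0 to 446 CPM in the colon, 1209 to 3169 CPM in the ileum on day 8 and 672 to 2321 CPM on day 12. The 6 B and plasma cell genes summed to 34.7 to 38.4 CPM in the graft, 97.2 to 1466 CPM in the colon, and 2991 to 28380 CPM in the ileum on days 8 and 12. The 6 T cell genes summed to at most 2.11 CPM in the graft, 4.71 to 11.8 CPM in the colon and 7.22 to 127 CPM in the ileum. Ileal day 4 libraries were of 2 kinds: replicates 2 and 3, of experiment 1, had 74.7 and 123.3 CPM of endothelial genes, 806 and 612 CPM of B and plasma cell genes and 16030 and 16990 CPM of epithelial genes, whereas replicates 1 and 4, of experiment 2, had 2903 and 1408 CPM of endothelial genes and 4560 and 5040 CPM of epithelial genes. Replicate 1 of the Cx3cr1-DTR colon also stood apart in Ly6a and in its ratio of Ly6c1 to Ly6c2. Results that rest on these libraries are given with and without them.

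**Figure D1:**
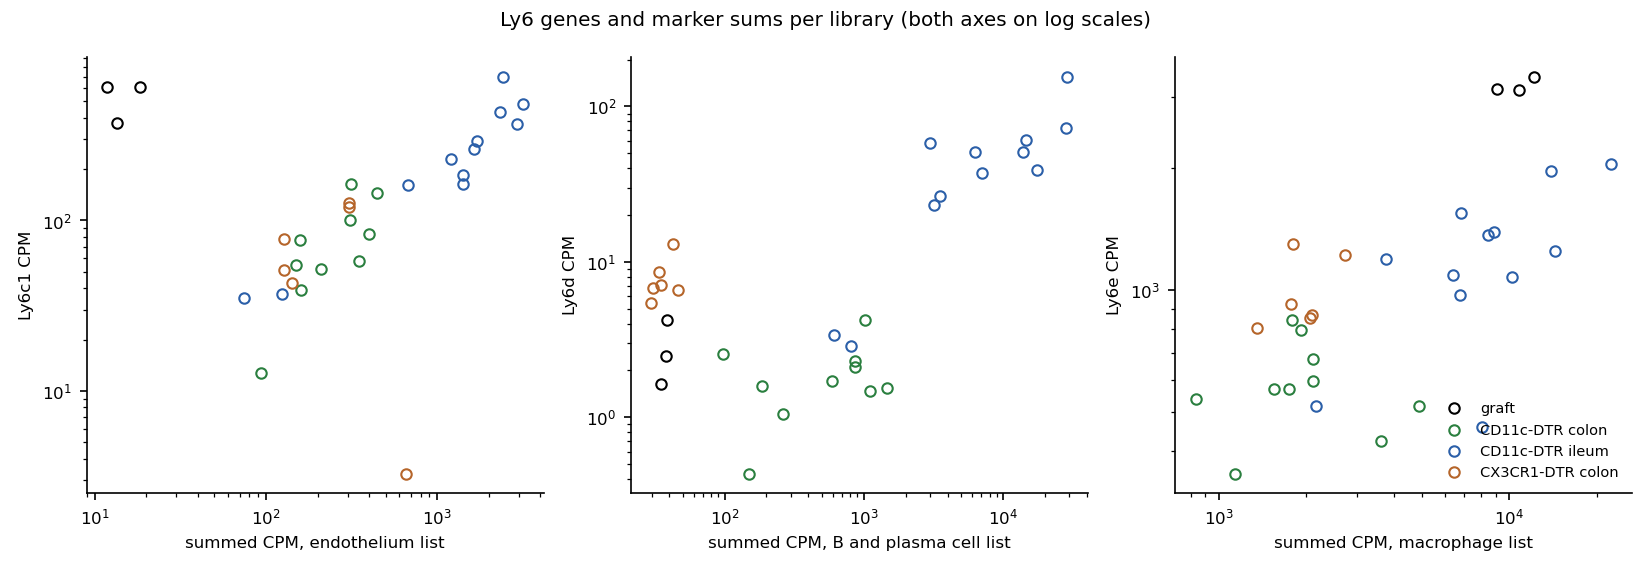
CPM of Ly6c1, Ly6d and Ly6e in each library against the summed CPM of marker gene lists, beside which the Ly6 levels have to be read. In this order, the lists are the endothelial, the B and plasma cell and the macrophage genes, and both axes are on log scales. Endothelial and B and plasma cell genes are highest in ileal libraries.

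Ly6a was the member that rose from the graft in both segments and in both kinds of recipient with the largest fold. The graft libraries had 4.09, 4.67 and 5.63 CPM (10, 17 and 16 reads). Only the last reached the minimum of 5 CPM, so Ly6a entered the test through engrafted libraries and its rise is given as a description. In the colon, levels were 244, 361 and 260 CPM on day 4, 195, 269 and 316 CPM on day 8, and 274, 228, 306 and 351 CPM on day 12. In the ileum, they were 650, 465, 193 and 260 CPM on day 4, 402, 280, 172 and 357 CPM on day 8, and 175, 369, 290 and 386 CPM on day 12. Every one of the 10 colonic and 12 ileal libraries was therefore above all 3 graft libraries, and the groups did not overlap. The rise was by 6.03 ± 0.475 (SE) on the log2 scale in the colon on day 4, 5.87 ± 0.472 on day 8 and 6.02 ± 0.467 on day 12. In the ileum it was by 6.35 ± 0.474, 6.14 ± 0.47 and 6.08 ± 0.469. The adjusted p of edgeR's quasi-likelihood test was between 2.12e-10 and 4.39e-10 over these 6 comparisons. Ly6a was also called in each of them by all 35 alternative fits, the fit without the filter among them.

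No colon to ileum difference of Ly6a passed the test on any day. Group means were 288 ± 63.5 (SD, n = 3), 260 ± 60.7 (n = 3) and 290 ± 51.99 CPM (n = 4) in the colon on days 4, 8 and 12, and 392 ± 207, 303 ± 101 and 305 ± 96.2 CPM (n = 4 each) in the ileum. The colon to ileum difference was -0.31, -0.28 and -0.05 on the log2 scale on the 3 days, the last with an SE of 0.317 and an edgeR adjusted p of 0.921, and 5 of 12 ileal libraries were above all colonic ones. Differences of the size of that SE are not resolved by these libraries. Colonic day 8 replicate 1, left out of the tests, had 59.6 CPM of Ly6a, below the 195 to 316 CPM of the other 3.

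**Figure D2:**
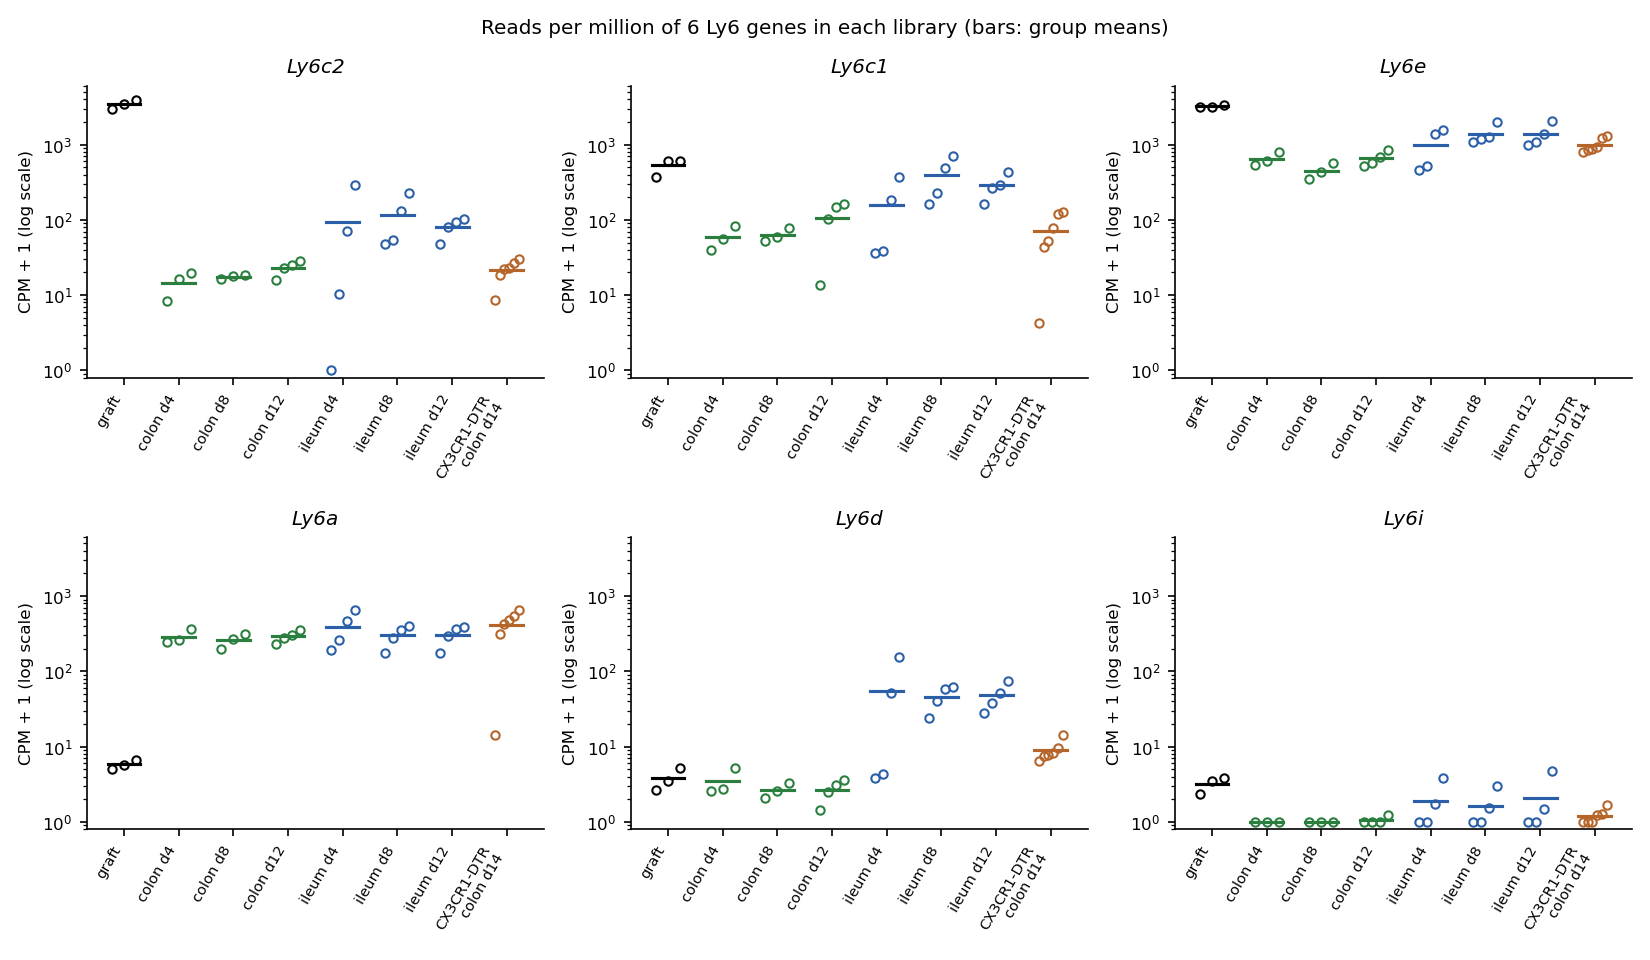
CPM of each of the 6 genes on a log axis in every library of the graft, the colon and ileum by day, and the Cx3cr1-DTR colon, 1 point a library. Ly6a is at 4.09 to 5.63 CPM in the graft and between 172 and 650 CPM in the CD11c-DTR gut, Ly6c2 is at 2941 CPM or more in the graft and at most 29.4 CPM in every colonic library, and Ly6d is at 23.12 CPM or more in 10 of 12 ileal libraries and at most 13.1 CPM elsewhere.

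Ly6e was among the most abundant members both before and after engraftment. The graft had 3119, 3361 and 3142 CPM. Colonic libraries had 540, 598 and 796 CPM on day 4, 425, 570 and 353 CPM on day 8, and 843, 518, 571 and 677 CPM on day 12. Ileal libraries had 1551, 518, 460 and 1367 CPM on day 4, 1966, 1251, 1079 and 1195 CPM on day 8, and 2052, 973, 1092 and 1393 CPM on day 12. All 22 engrafted libraries were below all 3 graft libraries, and Ly6e fell in both segments. Colonic day 8 replicate 1, outside the tests, had 979 CPM, more than any other colonic library and still below the graft. On the log2 scale it fell by 2.17 ± 0.391, 2.71 ± 0.4 and 2.18 ± 0.354 in the colon (edgeR adjusted p of 4.94e-05, 3.93e-06 and 1.24e-05 on days 4, 8 and 12), and in the ileum by 1.75 ± 0.351, 1.07 ± 0.349 and 1.05 ± 0.348 (0.000193, 0.012 and 0.0128).

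Ly6d had few reads in the graft, at 1.63, 2.47 and 4.22 CPM, and lay in or below that range in the colon, where the 10 libraries ranged from 0.434 to 4.21 CPM. Its log2 differences from the graft were 0.00, -0.52 and -0.73 in the colon, each with an SE of at least 1, and none passed the test (edgeR adjusted p of 1, 0.693 and 0.545). In the ileum it had 155, 2.89, 3.38 and 51.3 CPM on day 4, 60.4, 57.9, 23.12 and 39.2 CPM on day 8, and 26.6, 51.1, 37.2 and 72.4 CPM on day 12. On days 8 and 12 all ileal libraries were above all graft libraries, whereas on day 4 replicates 2 and 3, the ones with few endothelial and B and plasma cell genes, were at the colonic level. Its ileal log2 differences from the graft were 4.16 ± 0.885, 4.15 ± 0.881 and 4.15 ± 0.878 (edgeR adjusted p of 0.00035, 0.000362 and 0.000319), in a direction fixed by the filter. In the fit without the filter they were 4.12, 4.12 and 4.11 (0.000164, 0.000166 and 0.000148). Without replicate 1 of day 4, the mean of that group went from 53.1 to 19.2 CPM and the log2 difference from 4.16 to 2.61 ± 0.775 (0.00688).

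Ly6c2, the main source of the Ly6C antigen of classical monocytes, was at 3888, 2941 and 3407 CPM in the graft. Colonic libraries had 15.2, 18.4 and 7.46 CPM on day 4, 15.2, 17.7 and 17.0 CPM on day 8, and 24.2, 14.8, 27.4 and 21.98 CPM on day 12. Ileal libraries had 290, 9.38, 0 and 69.7 CPM on day 4, 130, 53.2, 46.9 and 229 CPM on day 8, and 47.3, 92.7, 78.4 and 102 CPM on day 12. All engrafted libraries were below the graft. The graft was sorted as Ly6C+ and the labels give the engrafted cells as Ly6C-, so the drop is given as a description, and the part of the sort in it was not tested. The log2 differences were -7.83, -7.54 and -7.13 in the colon and -5.28, -4.65 and -5.30 in the ileum on days 4, 8 and 12. Without replicate 1 of ileal day 4 the group mean went from 92.2 to 26.4 CPM and the log2 difference from -5.28 to -7.09, and without replicate 4 of ileal day 8 the log2 difference went from -4.65 to -5.42.

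Ly6c1, the other source of Ly6C, was at 607, 372 and 604 CPM in the graft. In the colon it had 39.2, 54.8 and 83.0 CPM on day 4, 51.9, 57.6 and 76.7 CPM on day 8, and 101, 12.7, 163 and 145 CPM on day 12. In the ileum it had 366, 35.0, 37.2 and 185 CPM on day 4, 482, 164, 228 and 697 CPM on day 8, and 161, 293, 431 and 261 CPM on day 12. Colonic libraries were thus below the graft without exception, while of the 12 ileal ones 9 were below all graft libraries, 1 was above all of them and the rest lay within their range. The colonic log2 differences from the graft were -3.01 ± 0.76, -2.96 ± 0.757 and -2.17 ± 0.662, and the ileal ones -1.82 ± 0.662, -0.21 ± 0.653 and -0.80 ± 0.65, of which the last 2 did not pass the test (edgeR adjusted p of 0.815 and 0.311). As for Ly6c2, the part of the sort in these differences was not tested. The ileal day 4 call of Ly6c1 (0.0226) was lost on leaving out graft replicate 1 (0.0523), graft replicate 3 (0.0609), ileal day 4 replicate 2 (0.0629) or replicate 3 (0.0643), when only the compared groups were fitted (-1.86, 0.0515), and with ileal day 4 of experiment 2 alone (-1.05, 0.21). Fitting only ileal day 12 and the graft called that comparison (-0.84 ± 0.287, 0.0302). Without replicate 1 of ileal day 4 the mean went from 156 to 85.9 CPM and the log2 difference to -2.66 (0.00276).

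Ly6i was too low for the test. It had 5 to 8 reads in each graft library (19 in all, 2.21 ± 0.75 CPM), none in the colonic libraries of days 4 and 8, and 1 in those of day 12. With 3 reads over a whole group as the floor, its graft level was at least 6.05-fold higher than on colonic day 4 and at least 6.86-fold higher than on day 8, and 28.6-fold that of day 12 (95% interval of the counts 4.54 to 1187). The ileum had 6, 4 and 11 reads on days 4, 8 and 12, and the ratio of graft to ileum was 1.97 (0.756 to 6.02), 3.63 (1.21 to 14.7) and 1.87 (0.847 to 4.35). Of the 11 reads of ileal day 12, 10 came from replicate 1.

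Counted over the 5 members tested, 1 rose (Ly6a) and 3 fell (Ly6c1, Ly6c2 and Ly6e) in the colon against the graft on each day. This stands against a background of 59%, 57.6% and 61.6% of genes called on days 4, 8 and 12, in which 35.8% of 12869 genes were called higher and 23.2% lower on day 4, 35% and 22.6% on day 8, and 37.8% and 23.7% on day 12. In the ileum, 2 were higher and 3 lower on day 4, and 2 were higher and 2 lower (Ly6c2 and Ly6e) on days 8 and 12. The higher ones were Ly6a and Ly6d, which both entered the test through engrafted libraries, Ly6d in a direction fixed by the filter. Of all genes, 36.6% were higher and 19.7% lower on day 4, 34.8% and 18.9% on day 8, and 36.7% and 19.4% on day 12. In either direction, 56.4%, 53.8% and 56.2% of genes were called in the ileum on the 3 days, so that the number of members called is not in itself a result about them. The median log2 difference of the 5 members was -2.17, -2.71 and -2.17 in the colon on days 4, 8 and 12 and -1.75, -0.21 and -0.80 in the ileum, beside 0.26, 0.26 and 0.30 and 0.26, 0.23 and 0.28 over all genes. The medians of the members include Ly6c1 and Ly6c2, which make the antigen that the graft was sorted on. They are a description and no measure of the family.

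**Figure D3:**
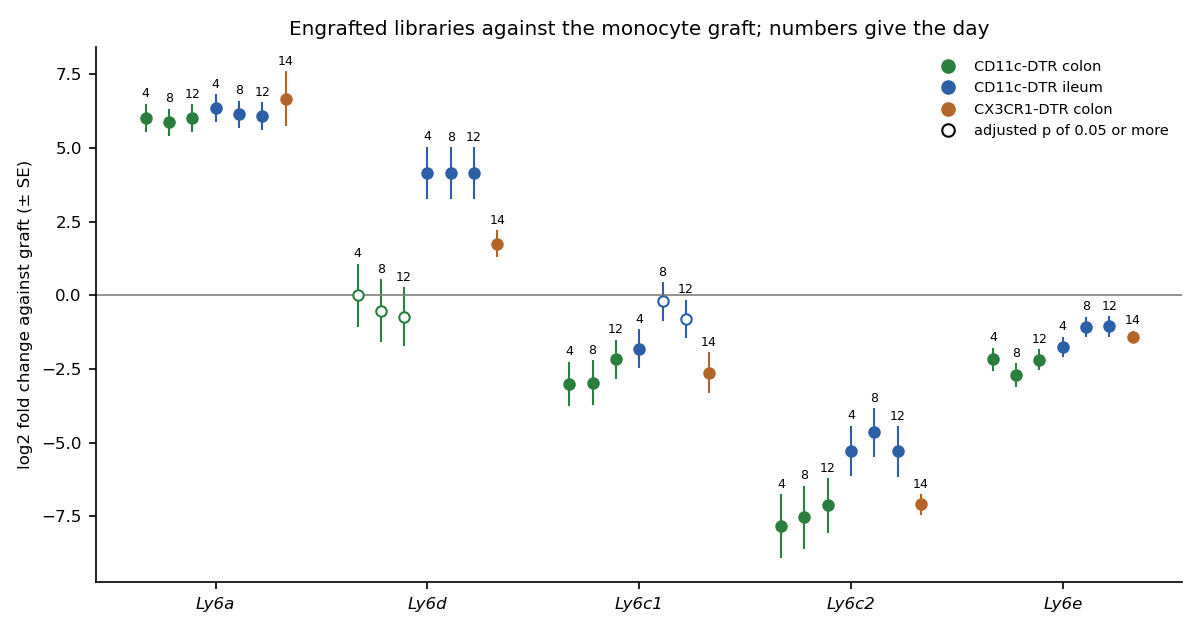
Log2 fold change (± SE) of the 5 tested genes against the monocyte graft for the colon and ileum on days 4, 8 and 12 and the Cx3cr1-DTR colon. Points are filled where the edgeR adjusted p is under 0.05. Ly6a is near 6 in all 6 CD11c-DTR comparisons and at 6.67 in the Cx3cr1-DTR colon. Ly6d is near 4 in the ileum, near 0 in the CD11c-DTR colon and at 1.75 in the Cx3cr1-DTR colon. Ly6e, Ly6c1 and Ly6c2 lie below 0, with Ly6c2 the lowest.

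The order of the members turned over with engraftment. By group mean, the graft had Ly6c2 (3412 ± 474 CPM) and Ly6e (3207 ± 133 CPM, n = 3) at the top, which did not differ beyond their spread, then Ly6c1 (528 ± 135 CPM), Ly6a (4.80 ± 0.782 CPM), and Ly6d (2.78 ± 1.32 CPM) and Ly6i within their spread of each other. On colonic day 12 the order was Ly6e (652 ± 143 CPM), Ly6a (290 ± 51.99 CPM), Ly6c1 (105 ± 67.2 CPM), Ly6c2 (22.09 ± 5.34 CPM) and Ly6d (1.65 ± 0.924 CPM, n = 4). On ileal day 12 it was Ly6e (1378 ± 483 CPM), Ly6a (305 ± 96.2 CPM) and Ly6c1 (286 ± 112 CPM) within their spread of each other, Ly6c2 (80.1 ± 23.9 CPM) and Ly6d (46.8 ± 19.8 CPM, n = 4). Reads of a 3' protocol were taken to be independent of transcript length, and these orders are of CPM with no correction for length.

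No member was called between days within a segment. In the colon, none of the 12869 genes was called between any pair of days (0% either way), although 224, 358 and 276 genes had an unadjusted p under 0.05 for day 8 against 4, 12 against 8 and 12 against 4 and DESeq2 called 0, 0 and 1. None of the members was among them. In the ileum, 4.81% of genes were called between days 4 and 8 (0.676% higher and 4.13% lower on day 8), 0% between days 8 and 12 (851 at an unadjusted p under 0.05, 0 by DESeq2) and 2.17% between days 4 and 12 (0.28% higher and 1.89% lower). Of the members, Ly6c1 had a log2 difference of 1.61 ± 0.628 (edgeR adjusted p = 0.141) and Ly6e of 0.68 from day 4 to day 8, and Ly6e of 0.69 from day 4 to day 12, at unadjusted p of 0.017, 0.0496 and 0.0443. Without ileal day 4 replicate 1, Ly6c1 and Ly6c2 were called between days 4 and 8, at 2.45 ± 0.672 (0.0223) and 2.44 ± 0.69 (0.0265), and these values set days against libraries that stood apart in their markers. The change from day 4 to day 12 was not called as different between the segments for any gene by edgeR (0%, with 798 genes at an unadjusted p under 0.05 and 1 by DESeq2), nor for any member.

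The colon and ileum differed in every tested member but Ly6a on day 8. Ly6d was lower in the colon by 4.16 ± 0.898 on the log2 scale on day 4, 4.67 ± 0.93 on day 8 and 4.88 ± 0.833 on day 12 (edgeR adjusted p of 0.0331, 0.000848 and 0.000445), again in the direction that the filter fixed. Without the filter the log2 differences were -4.14, -4.65 and -4.86 (0.0202, 0.000389 and 0.000144). Of the 12 ileal libraries, 10 were above all 10 colonic ones, and the exceptions were replicates 2 and 3 of day 4. Ly6e was lower in the colon by 1.64 ± 0.369 on day 8 (0.00217) and 1.13 ± 0.329 on day 12 (0.0119). For Ly6e too, 10 of the 12 ileal libraries were above all tested colonic ones. On day 4 it had a log2 difference of -0.42 ± 0.354 that did not pass (0.531). With colonic day 8 replicate 1 added, the day 8 difference of Ly6e was -1.19 ± 0.378 (0.0241). The Ly6e call of day 12 was lost without ileal day 12 replicate 1, whose 2052 CPM was the highest of the group (log2 difference -0.76, 0.08).

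The labels give the same selection for cells of both segments. On day 8, Ly6c1 was lower in the colon by 2.75 ± 0.729 (edgeR adjusted p = 0.00629) and Ly6c2 by 2.89 ± 0.864 (0.0131). On day 4 the log2 differences were -1.20 ± 0.69 and -2.55 ± 0.865 (0.329 and 0.0917), and on day 12 they were -1.38 ± 0.62 and -1.82 ± 0.738 (0.0944 and 0.0628), and did not pass. Ileal libraries were above all colonic ones in 9 of 12 cases for Ly6c1 and 10 of 12 for Ly6c2. Without ileal day 8 replicate 4, which had the highest level of both, the day 8 differences were -2.12 (0.0236) and -2.10 (0.0537), and without colonic day 8 replicate 4 that of Ly6c2 was -2.91 (0.0533).

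Counted over the 5 tested members, 1 was lower in the colon on day 4, 4 on day 8 and 2 on day 12, and none was higher. The background of genes called lower in the colon was 2.16% on day 4, 17.4% on day 8 and 16.9% on day 12, with 0.451%, 16.1% and 14.6% called higher and 2.61%, 33.5% and 31.5% in either direction. Ly6d, whose direction the filter fixed, is 1 of those lower on each day. The count on day 4 rests on it and on the mixture of ileal libraries: it was lost without any one of the 3 colonic day 4 libraries (log2 difference -3.89 without replicate 1, -3.98 without replicate 2, -4.79 without replicate 3, edgeR adjusted p of 0.168, 0.0878 and 0.123) or without ileal replicate 1 (-2.66, 0.155) or 4 (-4.18, 0.08), when only the compared groups were fitted (-4.18, 0.213) and with all 4 colonic day 8 libraries (-4.19, 0.0599). With ileal day 4 of experiment 2 alone, 3 members were called on day 4, Ly6d (-5.07 ± 0.578, 6.09e-06), Ly6c2 (-3.48 ± 0.598, 0.000301) and Ly6c1 (-1.97 ± 0.659, 0.0321), and Ly6e was not (-0.93, 0.0503). Ly6c2 alone was also called on day 4 without ileal replicate 2 (-2.93, 0.0151) or 3 (-2.93, 0.0391), and on day 12 without ileal day 4 replicate 1 (0.017), 2 (0.0334) or 3 (0.0253) or ileal day 8 replicate 4 (0.0482). When only the compared groups were fitted, Ly6c2 was called on day 12 (-1.83 ± 0.264, 0.000955), and with ileal day 4 of experiment 2 alone Ly6c2 (-1.82, 0.00339) and Ly6c1 (-1.37, 0.0405) were called on that day.

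**Figure D4:**
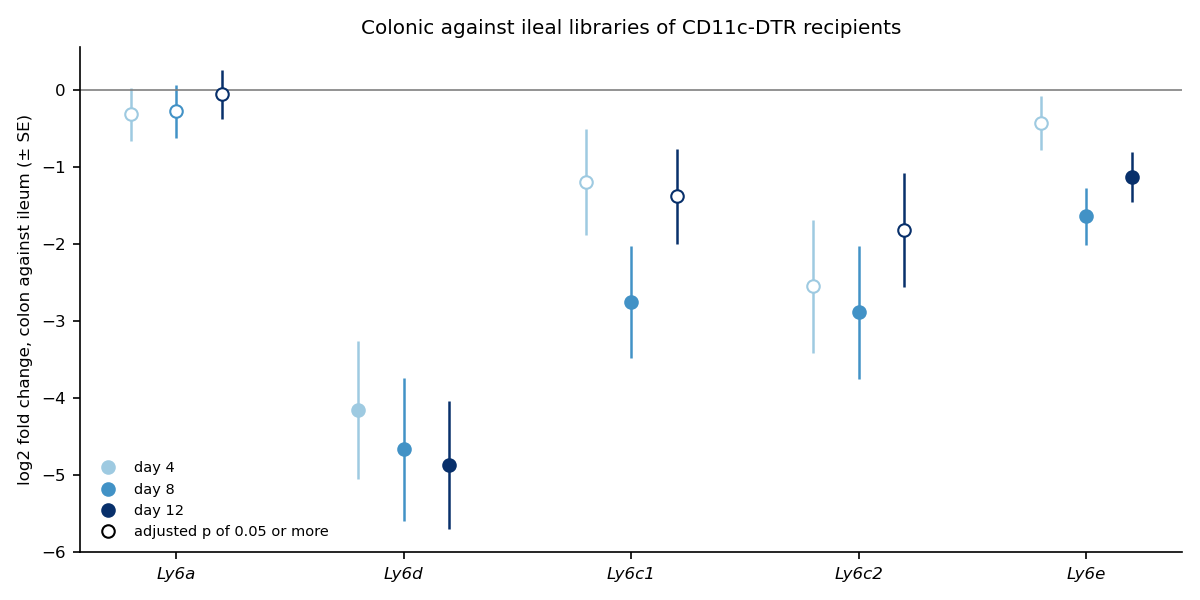
Log2 fold change (± SE) of the 5 tested genes in the colon against the ileum on days 4, 8 and 12, with open points where the edgeR adjusted p is 0.05 or more. Ly6a lies at or just below 0 on all days and Ly6d between -4.88 and -4.16, with Ly6c1, Ly6c2 and Ly6e between.

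Within each day, libraries of the same experiment could be compared in 6 sets of colon and ileum. On day 12, the sets of experiments 1 and 3 held 1 library of each segment and give a direction only. No set came from experiment 1 on day 4. Its ileal libraries then had 2.89 and 3.38 CPM of Ly6d, 9.4 and 0 CPM of Ly6c2 and 518 and 460 CPM of Ly6e. These values lay within or below the colonic range. In all 6 sets, every ileal library was above every colonic one in Ly6c2, Ly6d and Ly6e, and in 5 of 6 in Ly6c1, where experiment 2 of day 12 had 163 CPM in a colonic and 161 CPM in an ileal library. For Ly6a this was so in 2 of 6. The share of all genes with such a separation was not computed, so these counts are a description. For Ly6d the filter had fixed the direction. Without ileal day 8 replicate 2, whose date was read as a slip, the counts were the same but for Ly6a, with 3 of 6. On day 8, means of colon and ileum were 51.9 and 355 CPM of Ly6c1 in experiment 2 and 67.1 and 430 CPM in experiment 3, and for Ly6e 425 and 1522 CPM and 462 and 1223 CPM. On day 12, Ly6e had 843 and 973 CPM in experiment 1, 545 and 1572 CPM in experiment 2 and 677 and 1393 CPM in experiment 3, so that its direction held in each while its size did not.

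Levels of Ly6c1, Ly6c2, Ly6d and Ly6e followed those of other cell types across the 22 engrafted CD11c-DTR libraries, which share the segment differences described above. Ly6c1 had a Pearson correlation of 0.937 with the summed endothelial genes on the log2(CPM + 5) scale, 0.801 within the 10 colonic and 0.955 within the 12 ileal libraries, and the 3 genes most like it of 7572 were Fabp4 (0.962), a fatty acid carrier, and Egfl7 (0.957) and Jam2 (0.957), both known from endothelium. Ly6c2 had 0.893 with the endothelial genes, 0.912 within the ileum and 0.116 within the colon, where it spanned only 7.46 to 27.4 CPM. With the B and plasma cell genes Ly6c2 had 0.794, 0.921 within the ileum and -0.499 within the colon. With the T cell genes it had 0.855, 0.899 within the ileum and -0.316 within the colon. It was most like Rgcc (0.947), Adgrl4 (0.939) and Ptprb (0.933), the last an endothelial phosphatase. Ly6d had 0.905 with the B and plasma cell genes and 0.982 with the 6 T cell genes, 0.894 and 0.967 within the ileum, and was most like Mzb1 (0.978), a chaperone of antibody-secreting cells, Ccr9 (0.963), the gut-homing chemokine receptor of lymphocytes, and Prg2 (0.962), an eosinophil granule protein. Within the colon, Ly6d had 0.328 with the B and plasma cell genes and 0.228 with the T cell genes, at levels mostly near the floor. With the endothelial genes Ly6d had 0.897, 0.909 within the ileum and 0.077 within the colon. These are descriptions over libraries that share depth, experiment and makeup, and the part of other cells in the levels was not tested.

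Ly6e followed the lists of several cell types as well. It had a correlation of -0.915 with the epithelial genes and 0.745 with the macrophage genes, -0.954 and 0.632 within the ileum and 0.024 and 0.012 within the colon. With the T cell, endothelial, and B and plasma cell genes it had 0.873, 0.858 and 0.762. In the same order, these were 0.827, 0.786 and 0.744 within the ileum and 0.306, 0.583 and -0.149 within the colon. The genes most like Ly6e were Ifi35 (0.939) and Ifitm3 (0.937), both interferon-induced, and Tmem176a (0.913), and the first 2 stood at 0.735 and 0.828 within the colon and 0.923 and 0.890 within the ileum. For Ly6a the highest values were lower, with Trim33 (0.718), Rbm18 (0.706) and Naa16 (0.654). Among the marker lists, Ly6a had its highest correlation with the fibroblast genes, at 0.521, and 0.304 with the endothelial genes. With the macrophage genes it had -0.137, -0.382 within the colon and -0.510 within the ileum. Ly6c1 and Ly6c2 had 0.866 with each other, 0.435 within the colon and 0.922 within the ileum. In the graft, where 7 of 8 endothelial markers were at the floor, Ly6c1 was at 372 to 607 CPM and Ly6c2 at 2941 to 3888 CPM.

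Of the reads that fell on either Ly6c1 or Ly6c2, the Ly6c1 share was 13.5%, 11.2% and 15.1% in the graft (13.3% ± 1.92, n = 3, over 11003 to 12058 reads each). In the 22 engrafted CD11c-DTR libraries it averaged 77.4% ± 10.98 and ranged from 46.2% to 100%, and no library overlapped the graft. Ly6c2 therefore made most of the Ly6C transcripts of the graft and Ly6c1 most of those of the engrafted libraries, and since a share does not depend on library size this holds under any scaling. The lowest share, 46.2% in colonic day 12 replicate 2, rests on 24 of 52 reads (95% Clopper-Pearson interval 32.2% to 60.5%), and the highest, in ileal day 4 replicate 3, on 22 of 22 (84.6% to 100%). Means were 79.6%, 78.5% and 74.8% in the colon and 76.8%, 78.1% and 77.4% in the ileum on days 4, 8 and 12. The differences between segments of 2.72, 0.43 and -2.63 percentage points were smaller than the spread (two-sided exact permutation p of 0.914, 0.857 and 0.971, all 0.971 after Benjamini-Hochberg adjustment over the 3 days, with 0.0286 as the smallest p possible on days 4 and 8). The pooled reads of a group gave differences of 20.3 and 6.45 points on days 4 and 12, and the first rests on ileal day 4 replicate 1, at 55.8%, without which the pooled difference was 5.00 points. The graft was sorted on an antigen that both genes make, and the part of the sort in the change of the share was not tested.

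**Figure D5:**
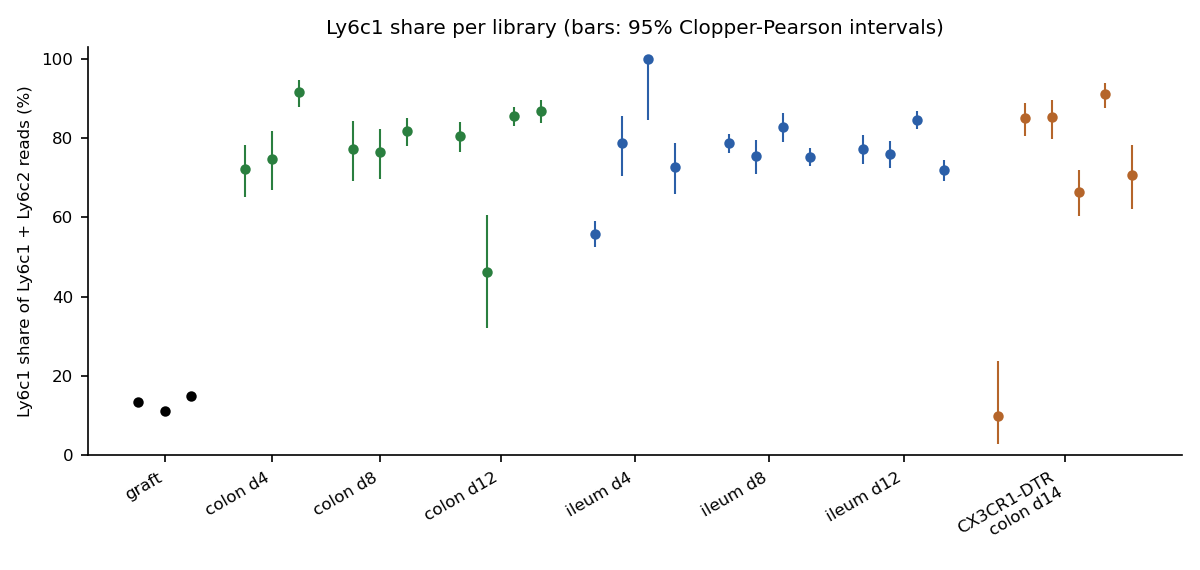
Share of Ly6c1 among the reads of Ly6c1 and Ly6c2 in each library, in percent, with 95% Clopper-Pearson intervals. The 3 graft libraries lie between 11.2% and 15.1% and the 22 engrafted CD11c-DTR libraries between 46.2% and 100%, and 1 Cx3cr1-DTR library lies at 10%.

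In the colon of Cx3cr1-DTR chimeras on day 14, Ly6a had 13.1, 546, 480, 426, 661 and 310 CPM, with replicate 1 far below the rest but still above the graft. Ly6e had 805 CPM in the lowest, 895 in the median and 1299 in the highest library, and Ly6d 5.45, 6.97 and 13.1 CPM. Ly6c1 had 3.27, 119.9, 126.0, 51.3, 78.0 and 42.8 CPM and Ly6c2 29.4, 21.1, 21.8, 25.9, 7.59 and 17.8 CPM. Replicate 1 was thus lowest in Ly6a and Ly6c1 and highest in Ly6c2 and Ly6d. Its Ly6c1 share was 10% (4 of 40 reads, 2.79% to 23.7%), whereas the other 5 libraries had 66.4% to 91.1% (79.7% ± 10.6). The same library had the most endothelial transcripts of its group, 659 CPM of a range from 127 CPM. Ly6i had 3 reads in all.

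Against the graft, all 5 tested members passed the test in these libraries, with 75.4% of the 11751 genes tested called, 39.5% higher and 35.9% lower. Ly6a rose by 6.67 ± 0.934 (edgeR adjusted p = 1.43e-05) and Ly6d by 1.75 ± 0.461 (0.0032), all 6 libraries being above the graft in both, and Ly6e fell by 1.40 ± 0.198 (1.62e-05). Ly6c1 and Ly6c2 had log2 differences of -2.62 ± 0.694 and -7.10 ± 0.346, given as a description as above. Ly6d reached the minimum of the test here through the Cx3cr1-DTR libraries, which all had more than 5 CPM, and so had to differ from groups below it. Ly6a reached it through engrafted libraries, as in the first fit.

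Set against the colon of CD11c-DTR chimeras on day 12, 2 of the 5 members were called, both higher, with 60.8% of genes called, 25.3% higher and 35.5% lower. Ly6d was higher by 2.27 ± 0.445 (edgeR adjusted p = 0.000488), again in a direction that the filter fixed. Without the filter its log2 difference was 2.26 (0.000618), and all 6 libraries were above all 10 CD11c-DTR colonic libraries. Ly6e was higher by 0.59 ± 0.191 (0.0149), with 5 of 6 libraries above all of the tested CD11c-DTR colonic ones. Colonic day 8 replicate 1, outside the tests, had 979 CPM of Ly6e, within the 805 to 1299 CPM of the Cx3cr1-DTR colon. The Ly6e call was lost without colonic day 12 replicate 2 (0.50 ± 0.203, 0.0523). Ly6a (0.46 ± 0.577, 0.514), Ly6c1 (-0.64 ± 0.654, 0.42) and Ly6c2 (-0.16 ± 0.301, 0.659) did not pass. Without Cx3cr1-DTR replicate 1, the mean of Ly6a was 485 ± 131 CPM (n = 5) against 406 ± 226 CPM with it, and its difference passed (0.74 ± 0.211, 0.00616). Recipient genotype, day and count table differ together between these groups and cannot be told apart. In the ileum, Ly6d followed the B and plasma cell genes and, more closely, the T cell genes. The B and plasma cell genes summed to 29.9 to 46.6 CPM in the Cx3cr1-DTR colon and 97.2 to 1466 CPM in the tested CD11c-DTR colon. The T cell genes summed to 5.45 to 11.4 CPM and 4.7 to 11.8 CPM. The part of these cells in the Ly6d levels was not tested.

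The other genes of the Ly6 and urokinase receptor superfamily were taken from a list of 38 symbols, of which 32 were in both tables and 12 were tested. For 11 of the 12, all but Plaur, no graft library had the minimum of 5 CPM, so that they entered the test through engrafted libraries and their counts against the graft are a description. Against the graft, 9 were higher and 1 lower in the colon on each day, beside 35% to 37.8% of all genes higher and 22.6% to 23.7% lower. In the ileum 10, 6 and 7 were higher and none lower on days 4, 8 and 12, beside 34.8% to 36.7% and 18.9% to 19.7%. Lypd8, an epithelial protein of the colonic crypt surface that binds flagellated bacteria, had 0.97 CPM in the graft, 4810 to 7915 CPM by group mean in the colon and 743 to 3470 CPM in the ileum, above every one of the 6 members in the colon. Ly6g6d and Ly6g6e had no read in the graft and 12.4 ± 1.31 and 53.7 ± 11.5 CPM on colonic day 12, Lypd6b went from 0.117 to 5.53 CPM, 2010109I03Rik from 1.37 to 51.0 CPM and 9030619P08Rik from 0.117 to 13.1 CPM. Ly6g, the neutrophil antigen, rose from 2.28 CPM to 36.4 ± 15.8 CPM on colonic day 12 (log2 difference 4.06 ± 0.849, edgeR adjusted p = 0.000244), while the 8 neutrophil and granulocyte precursor genes, Ly6g among them, summed to 993 to 1549 CPM in the graft and 23.2 to 66.2 CPM there. Plaur, the urokinase receptor, fell by 1.44 ± 0.576 (0.0332) from 163 to 56.4 CPM, and Lynx1 (0.89, 0.12) and Ly6k (0.45, 0.879) did not pass.

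Between segments, none of the relatives was called on day 4, 7 were higher in the colon and 3 lower on day 8, and 7 were higher and 2 lower on day 12. Of all genes, 16.1% were called higher and 17.4% lower on day 8, and 14.6% and 16.9% on day 12. Lypd6b had no ileal library at 5 CPM and Ly6k no colonic one, so that the filter fixed the direction of these 2. The 7 higher ones were Lypd8, Ly6g, Ly6g6d, Ly6g6e, Lypd6b, 2010109I03Rik and 9030619P08Rik on both days, with log2 differences of 2.28 to 4.45 on day 8. The lower ones were Gpihbp1, which holds lipoprotein lipase on capillary endothelium (-3.73 and -2.37 on days 8 and 12), Ly6k (-3.92 and -3.98) and, on day 8, Cd59a, an inhibitor of complement (-1.39). Gpihbp1 had no read in the graft and means of 6.26 to 9.04 CPM in the colon and 30.9 to 105 CPM in the ileum. Between days, none was called in the colon, and 4 were lower in the ileum on day 8 and 4 on day 12 than on day 4, where replicates 2 and 3 held the most epithelial transcripts. In the Cx3cr1-DTR colon, 9 of the 10 tested were higher and 1 lower than in the graft, and 2 were higher and 1 lower than in the CD11c-DTR colon of day 12.

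The enzymes that make and attach the GPI anchor, a list of 29 of which 28 were in both tables and 25 were tested, are needed for any Ly6 protein to reach the surface. Against the graft, 7, 6 and 6 were higher and 2, 1 and 2 lower in the colon on days 4, 8 and 12, and 6 were higher on each day and 2, 4 and 3 lower in the ileum. Of all genes, 59%, 57.6% and 61.6% were called in either direction in the colon and 56.4%, 53.8% and 56.2% in the ileum. Pigp (3.42 ± 0.295, edgeR adjusted p = 1.11e-09) and Piga (3.25 ± 0.48, 3.56e-06), both parts of the transferase that starts the anchor, rose the most on colonic day 12, and Pigs (-0.72, 0.0121), a part of the transamidase, and Dpm3 (-0.43, 0.0492), a part of the enzyme that makes the mannose donor, fell the most. The median of the 25 was 0.13 beside 0.30 over all genes. Between segments, 1, 5 and 5 were higher in the colon and 0, 1 and 0 lower on days 4, 8 and 12, beside 2.61%, 33.5% and 31.5% of all genes called in either direction, and none was called between days. In the Cx3cr1-DTR colon, 13 were higher and 7 lower than in the graft and 11 higher and 9 lower than in the CD11c-DTR colon. In each of these last 2 comparisons 20 of the 25 were called, beside 75.4% and 60.8% of all genes.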

How the data were processed

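The deposited tables hold raw counts of reads per gene. Per the labels and the study's methods, the authors sequenced 3' libraries of a MARS-seq type, mapped reads to mm9 with HISAT 0.1.6, kept uniquely mapped reads and counted them over exons, 1 transcript per gene and by strand, with HOMER (version not given in the sources used here). A further 52 columns matched no sample and were not used. The members and gene lists were chosen with earlier results of these data known.

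Counts were tested with edgeR 4.0.16 (quasi-likelihood, TMM scaling, Benjamini-Hochberg adjustment over all genes tested) in R 4.3.3, for genes with at least 5 CPM in at least 3 libraries: 12869 genes in 1 fit of 25 libraries of 7 groups, and 11751 in a fit of the graft, CD11c-DTR colon day 12 and Cx3cr1-DTR colon (13 libraries). Colonic day 8 replicate 1 was kept for an alternative, since names in the study's source data match the titles of the other colonic day 8 libraries. Libraries held 591817 to 5228664 reads on genes. Correlations used log2(CPM + 5). The Ly6c1 share was compared with exact permutation tests (scipy 1.17.1). Alternatives of scaling, filter, tool (DESeq2 1.42.0), libraries and an experiment term are given in the closing section.

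Every member was named in every group, as were all superfamily genes tested, the 2 GPI anchor genes with the largest rise and fall on colonic day 12, and the 3 genes most correlated with each member among those with a mean of at least 20 CPM. Counts of 51 pairs of libraries within groups were compared by chi-square, and the lowest ratio to its degrees of freedom was 4.34, so that all were kept as separate. The dates in the labels mark shared experiments, on the reading that 1 ileal day 8 date is a year off by a slip. Deviations from the group means correlated with a median of 0.02 over 96 pairs of libraries of the same experiment and -0.01 over 171 of different ones. The script was tested on simulated counts.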

Additional observations from a re-analysis of the deposited data

Results flagged for a closer look

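Among 35 sets of 4 or 6 libraries, 4 had a highest or lowest library that lay far from the rest by Dixon's test. For normally distributed values chance alone does this in about 1 of 20 sets. That rate does not apply to the Ly6i sets, where the libraries beside the flagged one had 0 or 1 read. Ly6i stood out in colonic day 12 replicate 3, at 0.217 CPM, which is its single read in that group, and in ileal day 12 replicate 1, at 3.75 CPM, which holds 10 of the 11 reads. The Ly6c1 share of Ly6C reads stood out in colonic day 12 replicate 2, at 46.2%, and in Cx3cr1-DTR replicate 1, at 10%, on 52 and 40 reads.

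The change from the graft differed between colon and ileum by the edgeR test of the segments in 7 cases, which share the same graft libraries and include 3 of Ly6d whose direction the filter fixed. On the log2 scale, colon minus ileum was -4.16 on day 4, -4.67 on day 8 and -4.88 on day 12 for Ly6d, -2.75 for Ly6c1 and -2.89 for Ly6c2 on day 8, and -1.64 on day 8 and -1.13 on day 12 for Ly6e. The colonic day 8 library outside the tests had 59.6 CPM of Ly6a, above the 4.09 to 5.63 CPM of the graft.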

How the results depend on the processing

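Of 1253 alternative values of the 39 member results past the threshold, 1236 kept direction and call, 17 kept direction only and none reversed. No call of a member changed with RLE scaling, scaling to reads on genes or to mapped reads, DESeq2, or the experiment as a replicate block, under which Ly6d was -4.72 and Ly6e -1.06 between segments on days 8 and 12. In the graft comparisons, 60.6% to 65.4% of the genes called with TMM were higher. With scaling to mapped reads, 45.5% to 52.8% of the called genes were. Medians of all genes were 0.23 to 0.30 and -0.28 to 0.01. Without the filter Ly6i was also called against the graft in the colon. Of the members called in the colon against the ileum, 1 on day 4 became 0 in a fit of those groups alone or with all 4 colonic day 8 libraries, 3 with ileal day 4 of experiment 2 alone, and 0 to 2 without single libraries. On day 12, 2 became 4 with ileal day 4 of experiment 2 alone and 1 to 3 without single libraries, and on ileal day 8 against day 4, 0 became 0 to 2. For Cx3cr1-DTR against CD11c-DTR colon, 2 became 1 to 3. The difference in Ly6c1 share was 20.3 points on day 4 and 6.45 on day 12 with pooled reads, against means of 2.72 and -2.63, and between -4.29 and 10.4 on day 4 and -6.65 and 6.92 on day 12 without single libraries. The cause of these changes was not tested beyond the fewer libraries in some fits. A level under 0.574 to 5.07 CPM, 3 reads, is not resolved.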
